A study of Mus musculus with 47 samples.

Results

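Dbp, Tef, Hlf and Nfil3 encode the transcription factors of the clock that bind the D-box, and their transcripts were followed in mouse skeletal muscle after removal of the adrenal glands. They were found by matching the Ensembl IDs of the expression table to gene symbols, which gave 4 of its 13500 genes, and all 4 passed the filter on low values. RNA was sequenced from whole tibialis anterior, a fast muscle of the shin, of 47 female C57BL/6 mice with free access to food, with 1 library per animal. Mice were sampled at ZT0 or ZT12, times counted in hours after the lights came on (zeitgeber time, ZT). The wild-type animals (WT) were sham operated (WT SHAM, 9 to 12 weeks of age), adrenalectomised (WT ADX, 12 to 17 weeks), or adrenalectomised and injected intraperitoneally with 0.5 mg/kg adrenaline (WT ADX+ADR, 13 to 14 weeks) or with 5 mg/kg dexamethasone, a synthetic glucocorticoid (WT ADX+DEX, 11 to 14 weeks). Injected mice were dosed over 10 days, at ZT12, so ZT0 and ZT12 animals also differ in the interval since the last dose. The design text places the recovery of 2 weeks before sampling after the treatment, so the time between last injection and sampling is not certain. RE-RE mice are Bmal1(stopFL/stopFL), with a stop cassette in both alleles that Cre removes, and carry both Syt10-Cre(-/tg), which acts in the clock of the brain, and Hsa-Cre(-/tg), which acts in skeletal muscle fibres. Cells of the muscle other than fibres are outside the reach of these drivers. RE-RE mice were sham operated (RE-RE SHAM, 9 to 14 weeks) or adrenalectomised (RE-RE ADX, 8 to 18 weeks). Adrenalectomised mice drank saline with glucose. Of the 12 groups 11 had 4 libraries and WT ADX at ZT0 had 3, and errors below are SD over these libraries unless given as SE. No vehicle-injected group was analysed here, so injection and hormone cannot be told apart, and no mice with the stop cassette but without Cre were analysed here.

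DBP, TEF and HLF are the PAR bZIP factors, which activate genes through the D-box, and NFIL3 (also called E4BP4) is a bZIP repressor that binds the same sites. In the clock of many tissues BMAL1 and CLOCK drive Dbp, Tef and Hlf through E-boxes, while Nfil3 is driven through RORE sites, where ROR receptors activate and REV-ERB receptors repress. Activators and repressor are therefore known to peak at opposite times of day, and their balance sets rhythmic output such as the Period genes and enzymes of detoxification.

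The start sites of these genes were searched for those elements in RefSeq promoter windows of GRCm38.p6, from 250 bases before to 50 bases after a start, of which 5 matched the 4 genes (2 of them for Tef). The motifs, read on both strands, were the E-box CACGTG, its variant CACGTT, the D-box TTANGTAA, the RORE core AGGTCA and the glucocorticoid receptor core ACANNNTGT. CACGTG, found in 7.2% of all 32851 windows, was in both Tef windows. AGGTCA, found in 16.3%, was in the Nfil3 window on the opposite strand. CACGTT (4.7% of all windows), TTANGTAA (2.3%) and ACANNNTGT (6.8%) had no match in the 5 windows, and the Dbp and Hlf windows had no match to any of the 5 motifs. These letters were matched in short windows and show no binding. The matches are printed on the strand of the gene with 12 flanking bases on each side and the match in capitals. They share letters with the kinds of element through which the clock is known to act, and whether these sites do so was not tested. They lie 127 and 138 bases before the RefSeq starts of the windows in Tef (chr15:81802534-81802563 and chr15:81811264-81811293, plus strand). In Nfil3 the match lies 12 bases before the RefSeq start (chr13:52981034-52981063, minus strand). By the gene coordinates given below, which follow GENCODE, all of these sites fall inside the genes.
Tef, first window: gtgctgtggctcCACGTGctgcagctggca
Tef, second window: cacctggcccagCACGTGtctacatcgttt
Nfil3: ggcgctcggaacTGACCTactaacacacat

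Values are FPKM, fragments scaled to transcript length and library depth, taken from the deposited log2 values. Recovered depth was 16.1 to 35.7 M reads per library (median 22.4), which puts about 2898 to 11906 reads behind a Tef value, 130 to 660 behind Hlf, 100 to 2485 behind Nfil3 and 53 to 6064 behind Dbp where it was above 0. Exactly 0 FPKM was listed for 1389 genes in 1 or more libraries, and 96 of the 3322 genes with a mean above 10 FPKM had such a value, so a 0 is described only as listed at 0. Within groups 40 libraries shared 21 to 71 exact values below 0.5 FPKM with another library, and 7 shared none: replicate 4 at ZT0 and replicate 8 at ZT12 of WT SHAM, replicates 2 and 6 of RE-RE SHAM, replicates 1 and 4 of RE-RE ADX at ZT0 and replicate 5 at ZT12. The labels give no information on shared litters or days, so p-values measure only the spread between these libraries.

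All 3 activators were higher at ZT12 than at ZT0 in every condition, without overlap between the groups. Such a separation upwards was found in 13.7% of all 12000 tested genes in WT SHAM, 10.4% after ADX alone, 10% with adrenaline, 12.5% with dexamethasone, 6.61% in RE-RE SHAM and 6.27% in RE-RE ADX. Nfil3 fell from ZT0 to ZT12 in both sham conditions and in WT ADX+DEX, and did not pass the test in the other 3 conditions. By the test across all genes (limma, adjusted p under 0.05) 4 of 4 genes changed in WT SHAM, where 23.5% of all genes did. The counts were 2 of 4 after ADX alone (11% of all genes), 3 of 4 with adrenaline (12.7%), 4 of 4 with dexamethasone (27.8%), 3 of 4 in RE-RE SHAM (10.8%) and 2 of 4 in RE-RE ADX (0.775%).

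**Figure D1:**
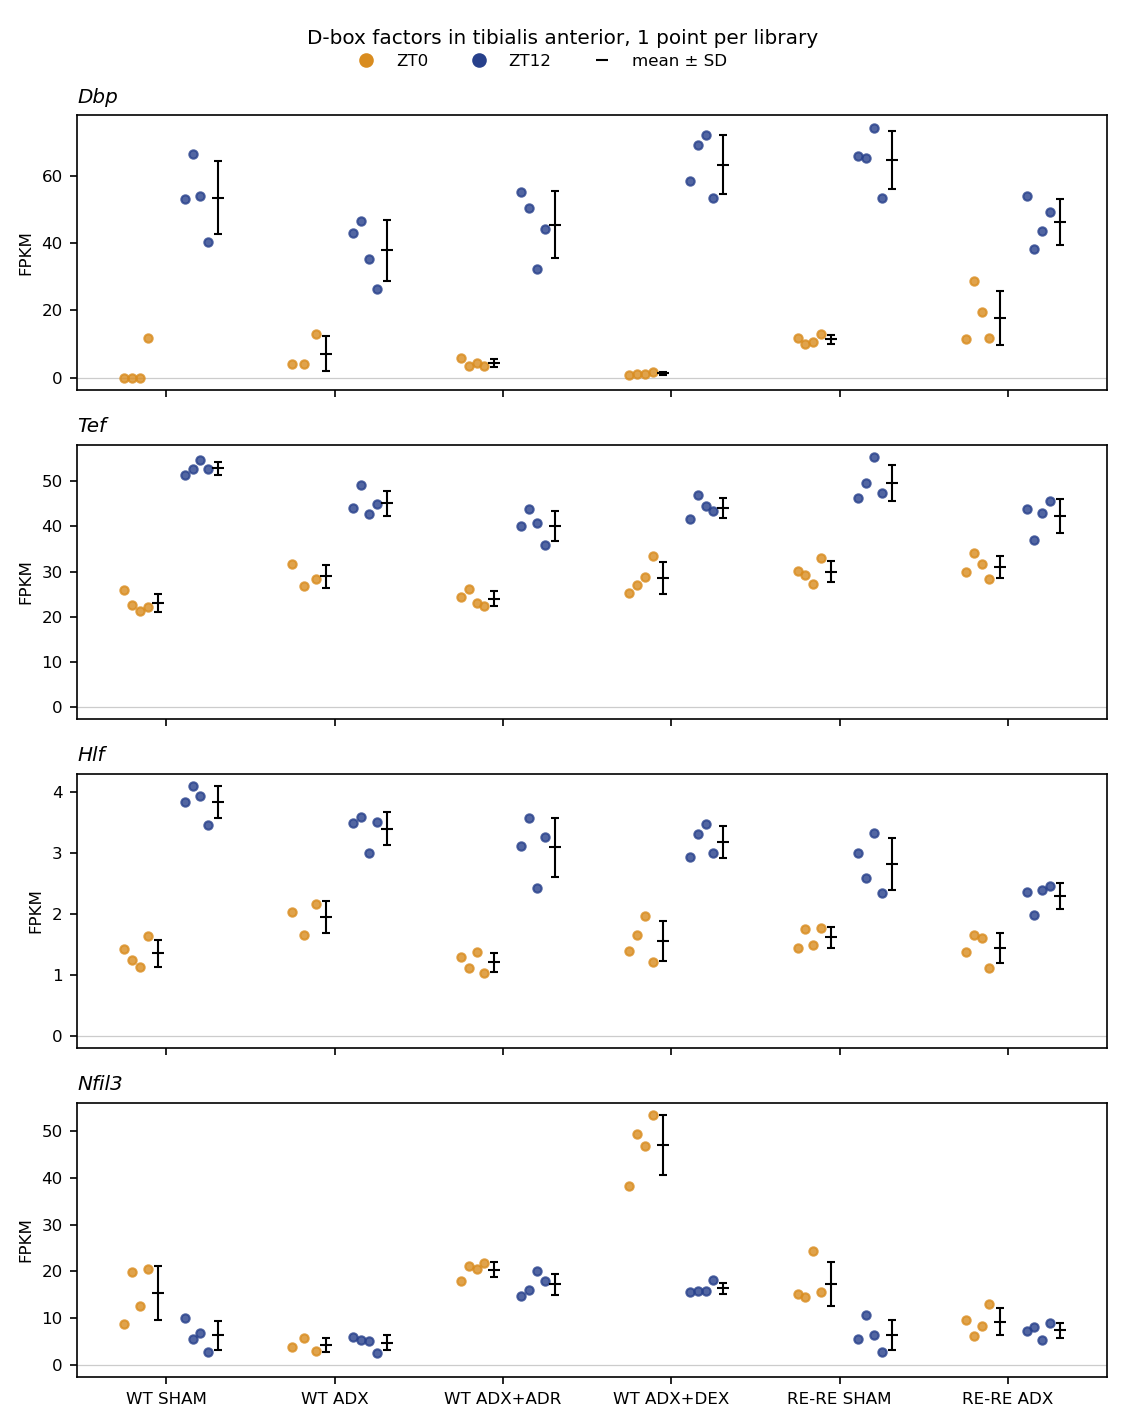
FPKM (linear axes from 0) of Dbp, Tef, Hlf and Nfil3 in each library of the 6 conditions at ZT0 (orange) and ZT12 (blue), with the mean and SD of each group except where a library is listed at 0. Dbp, Tef and Hlf are higher at ZT12 in all 6 conditions, while Nfil3 is highest in WT ADX+DEX at ZT0, where its 4 libraries read 38.2 to 53.4.

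Dbp (ENSMUSG00000059824, chromosome 7, 45705088 to 45710203, plus strand) is the activator with the widest daily swing in many tissues. In WT SHAM it was listed at 0 in 3 ZT0 libraries and read 11.9 FPKM in the fourth, against 53.2, 66.5, 54.1 and 40.2 at ZT12. The library at 11.9 is one of the 7 that share no exact low values with their group. In WT ADX the ZT0 libraries read 4.01, 4.13 and 13.1 and the ZT12 libraries 43.1, 46.6, 35.3 and 26.3. WT ADX+ADR read 5.95, 3.46, 4.51 and 3.44 at ZT0 and 55.2, 50.5, 32.2 and 44.1 at ZT12. WT ADX+DEX had the lowest ZT0 values among groups with no library listed at 0, 0.904, 1.21, 1.21 and 1.79, and rose to 58.5, 69.0, 72.0 and 53.4. The ratio of its mean levels was 49.4. RE-RE SHAM read 11.9, 9.97, 10.7 and 13.1 at ZT0 and 65.8, 65.4, 74.2 and 53.3 at ZT12. RE-RE ADX read 11.4, 28.6, 19.4 and 11.7 at ZT0 and 53.9, 38.2, 43.7 and 49.2 at ZT12. Its ZT0 mean was the highest of the conditions, and the ratio of its means, 2.6, the smallest of the 5 with no library listed at 0.

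The test of Dbp rested on the values listed at 0. The log2 change from ZT0 to ZT12 was 9.81 ± 1.06 (SE) in WT SHAM, a size set by the offset of 0.01 FPKM. The SE pools the spread of all groups and was therefore about as large in the other conditions. Dbp rose past the test in WT ADX+DEX (5.65 ± 1.06, adjusted p = 7.49e-05) and in WT ADX+ADR (3.4 ± 1.06, adjusted p = 0.0277), the latter call being lost when any of its 8 libraries other than ZT0 replicate 1 or ZT12 replicate 7 was left out (adjusted p up to 0.0643). It did not pass in WT ADX (2.62 ± 1.14, adjusted p = 0.134), RE-RE SHAM (2.5 ± 1.06, adjusted p = 0.133) or RE-RE ADX (1.48 ± 1.06, adjusted p = 0.649). With values at 0 dropped from the fit, the 3 changes were as large and the adjusted p was 7.12e-07, 7.65e-08 and 0.00433. The WT SHAM change was then 2.15 (adjusted p = 0.000616), with the single library at 11.9 standing for ZT0.

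Tef (ENSMUSG00000022389, chromosome 15, 81802421 to 81826863, plus strand), thyrotroph embryonic factor, was the most even of the 4 genes within groups, with coefficients of variation of 2.54% to 12.4%. WT SHAM read 25.9, 22.6, 21.3 and 22.1 FPKM at ZT0 and 51.4, 52.7, 54.7 and 52.7 at ZT12, a rise of 1.21 ± 0.08 (log2 ± SE, adjusted p = 2.38e-14). After ADX it read 31.7, 26.8 and 28.3 at ZT0 and 44.0, 49.1, 42.7 and 44.9 at ZT12. Its ZT0 libraries were above and its ZT12 libraries below those of WT SHAM, without overlap at either time, and the rise was 0.64 ± 0.09. Tef rose by 0.74 ± 0.08 with adrenaline, from 24.0 ± 1.68 to 40.1 ± 3.28 FPKM, and by 0.63 ± 0.08 with dexamethasone, from 28.6 ± 3.56 to 44.2 ± 2.19. In RE-RE SHAM it rose from 29.9 ± 2.32 to 49.7 ± 4.05 (0.73 ± 0.08). RE-RE ADX had the smallest rise, from 31.1 ± 2.49 to 42.3 ± 3.76 (0.44 ± 0.08, adjusted p = 0.00211), and the adjusted p was 0.736 without the 7 libraries that share no low values, of which this condition holds 3.

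Hlf (ENSMUSG00000003949, chromosome 11, 90336536 to 90390895, minus strand), hepatic leukaemia factor, was the least abundant member, at 1.03 to 4.1 FPKM. WT SHAM read 1.42, 1.25, 1.13 and 1.64 at ZT0 and 3.84, 4.1, 3.93 and 3.47 at ZT12, a rise of 1.5 ± 0.14 (log2 ± SE, adjusted p = 2.34e-10). It rose by 0.8 ± 0.15 after ADX alone (adjusted p = 0.000509, and 0.0537 with those groups alone in the model), 1.35 ± 0.14 with adrenaline and 1.05 ± 0.14 with dexamethasone. In RE-RE mice it rose by 0.8 ± 0.14 after sham surgery and 0.69 ± 0.14 after ADX. Mean levels went from 1.96 ± 0.261 to 3.4 ± 0.267 FPKM after ADX alone and from 1.21 ± 0.159 to 3.09 ± 0.486 with adrenaline. In RE-RE ADX they went from 1.44 ± 0.251 to 2.3 ± 0.214, and there the adjusted p of 0.00751 became 0.0576 without ZT0 replicate 4, 0.0927 with age as a covariate and 0.953 without the 7 libraries.

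Nfil3 (ENSMUSG00000056749, chromosome 13, 52967209 to 52981073, minus strand), the repressor, moved the other way from the activators in 3 conditions. WT SHAM read 8.72, 19.9, 12.5 and 20.6 FPKM at ZT0 and 10.1, 5.56, 6.93 and 2.68 at ZT12, groups that overlap in 1 library each. The fall was 1.36 on the log2 scale (-1.36 ± 0.33, adjusted p = 0.00237), and the adjusted p was 0.0836 without the 7 libraries and 0.063 with WT SHAM alone in the model. RE-RE SHAM read 15.1, 14.5, 24.4 and 15.5 at ZT0 and 5.57, 10.6, 6.45 and 2.86 at ZT12, without overlap (-1.56 ± 0.33, adjusted p = 0.00102). WT ADX+DEX fell from 38.2, 49.4, 46.9 and 53.4 to 15.5, 15.9, 15.9 and 18.2 (-1.51 ± 0.33, adjusted p = 0.000437). These last 2 groups do not overlap, and both are above every WT ADX library. After ADX alone the values were low at both times, 3.89, 5.84 and 2.89 at ZT0 and 6.05, 5.3, 5.19 and 2.55 at ZT12 (0.17 ± 0.35, adjusted p = 0.826). With adrenaline they were high at both times, 18.0, 21.1, 20.6 and 21.7 against 14.7, 16.1, 20.1 and 17.9 (-0.25 ± 0.33, adjusted p = 0.688). RE-RE ADX read 9.55, 6.1, 8.24 and 13.1 at ZT0 and 7.29, 8.02, 5.27 and 9.01 at ZT12 (-0.3 ± 0.33, adjusted p = 0.819). The difference between 2 conditions in this fall is tested further on.

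**Figure D2:**
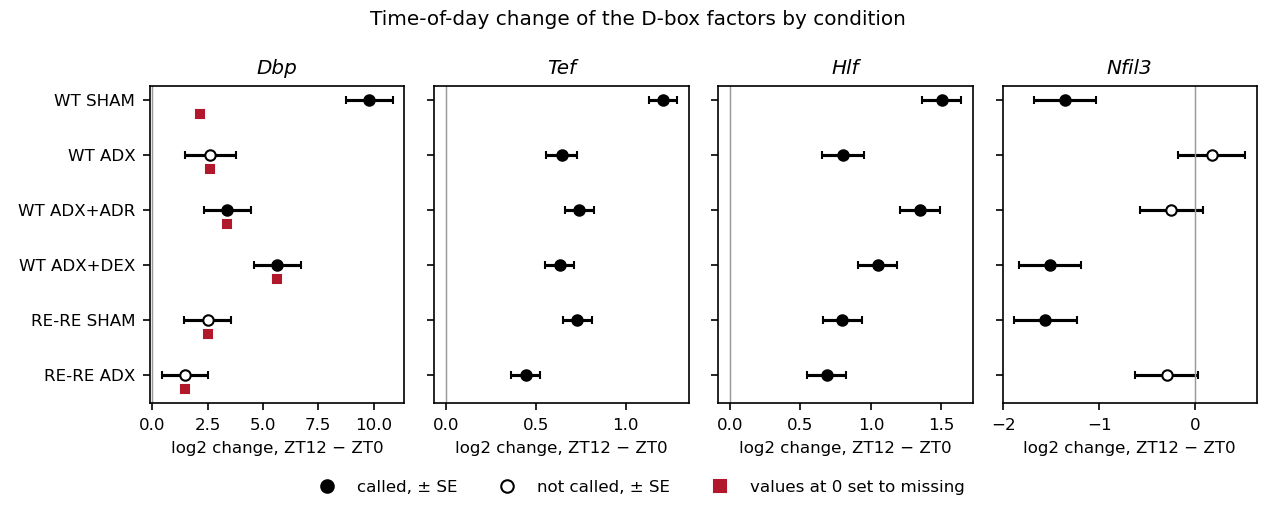
Log2 change from ZT0 to ZT12 with its SE in each of the 6 conditions for Dbp, Tef, Hlf and Nfil3, each panel with its own horizontal scale and a line at 0. Filled points passed the test and open points did not. Red squares give Dbp with values at 0 dropped, where the change in WT SHAM is 2.15 in place of 9.81.

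At ZT0 both sides of the D-box differed between WT ADX and WT SHAM, and 4 of 4 genes were called, where 32% of all genes were. The WT ADX mice were also older, at 12 to 15 weeks against 9 to 11, so surgery and age cannot be told apart. Nfil3 fell from 15.4 ± 5.79 to 4.2 ± 1.5 FPKM (-1.85 ± 0.35, adjusted p = 0.000119), all 3 WT ADX libraries being below the 4 of WT SHAM. Tef rose by 0.34 ± 0.09 (adjusted p = 0.00264) and Hlf by 0.53 ± 0.15 (adjusted p = 0.00687), the Hlf call being lost without WT ADX replicate 3 (adjusted p = 0.0521) and with a model of the compared groups alone (0.0639). With a block on the replicate number and only these groups in the model, Nfil3 (adjusted p = 0.0617), Tef (0.0734) and Hlf (0.11) were not called. The labels do not say that same-numbered mice were matched, and the deviations of these pairs correlated at -0.015 to 0.219. Dbp was called higher in WT ADX through the 3 libraries listed at 0 in WT SHAM, and with values at 0 dropped it was lower (-0.98, adjusted p = 0.101). At ZT12 1 of 4 genes was called (26.9% of all genes): Tef fell by 0.23 on the log2 scale (-0.23 ± 0.08, adjusted p = 0.0284), a call lost on leaving out WT SHAM replicate 7 or WT ADX replicate 4, 6 or 7. These groups also differed in age, without overlap (13 to 17 weeks in WT ADX, 10 to 12 in WT SHAM). The adjusted p of Tef was 0.0824 with age as a covariate and 0.0707 without the 7 libraries. In RE-RE mice 0 of 4 genes were called by limma between ADX and SHAM at ZT0 (5.45% of all genes) or at ZT12 (5.32%), with 1 and 2 at an unadjusted p under 0.05. Tef at ZT12 would pass without RE-RE ADX replicate 8 (adjusted p = 0.0479) or with equal medians of the libraries (0.0427). There Nfil3 read 9.26 ± 2.96 against 17.4 ± 4.74 FPKM at ZT0, all 4 ADX libraries being below the 4 of SHAM (-0.93 ± 0.33, adjusted p = 0.0857).

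Nfil3 was higher in injected mice than in WT ADX at both times. After adrenaline it stood at 20.4 ± 1.6 FPKM at ZT0 (2.33 ± 0.35, adjusted p = 1.39e-06) and 17.2 ± 2.33 at ZT12 (1.91 ± 0.33, adjusted p = 8.57e-06). After dexamethasone it stood at 47 ± 6.42 at ZT0, 11.2 times the WT ADX mean (3.53 ± 0.35, adjusted p = 4.21e-11), and 16.4 ± 1.25 at ZT12 (1.84 ± 0.33, adjusted p = 6.46e-06). None of these 4 groups overlapped with WT ADX. The hormones did not differ past the test at ZT12 (-0.07 ± 0.33, adjusted p = 0.898), while at ZT0 dexamethasone was 1.2 ± 0.33 above adrenaline (adjusted p = 0.00242). Against WT SHAM, Nfil3 rose at ZT12 with adrenaline (1.59 ± 0.33) and dexamethasone (1.52 ± 0.33), and at ZT0 with dexamethasone (1.68 ± 0.33, adjusted p = 3.25e-05) but not past the test with adrenaline (0.48 ± 0.33, adjusted p = 0.237, and 0.0246 with age as a covariate).

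The activators under the injections were compared with WT ADX first. With adrenaline at ZT0, Tef (-0.27 ± 0.09, adjusted p = 0.00799) and Hlf (-0.69 ± 0.15, adjusted p = 0.000224) fell against WT ADX, both without overlap, and without WT ADX replicate 1 the adjusted p of Tef was 0.0749. With dexamethasone at ZT0 Hlf fell by 0.34 on the log2 scale (-0.34 ± 0.15, adjusted p = 0.0417), groups that overlap, and the adjusted p reached up to 0.189 without WT ADX replicate 1 or 3 or dexamethasone replicate 1 or 4, 0.0712 with equal medians of the libraries and 0.15 with a model of the compared groups alone. Dbp was lower in all 4 dexamethasone libraries than in the 3 of WT ADX (-2.26 ± 1.14, adjusted p = 0.0771), and with values at 0 dropped the adjusted p was 5.35e-08. At ZT12 the 3 activators did not pass the test between either injection and WT ADX as deposited. Tef with adrenaline passed when replicate 6 of that group was left out (adjusted p = 0.0312). Dbp was higher in all 4 dexamethasone libraries than in all 4 of WT ADX (0.76 ± 1.06, adjusted p = 0.539), and passed with values at 0 dropped (0.0177), without the 7 libraries (0.0118) and with a model of the compared groups alone (0.00664). Against WT SHAM at ZT12, Tef fell in both, from 52.8 ± 1.34 to 40.1 ± 3.28 FPKM with adrenaline (-0.4 ± 0.08, adjusted p = 0.000122) and to 44.2 ± 2.19 with dexamethasone (-0.26 ± 0.08, adjusted p = 0.00579), without overlap. At ZT0 it went the other way with dexamethasone (0.31 ± 0.08, adjusted p = 0.000767) and did not pass with adrenaline (0.06 ± 0.08, adjusted p = 0.536). With a block on the replicate number and only the groups compared, the adjusted p with dexamethasone at ZT0 was 0.0598. Between the hormones at ZT0, Tef (0.25 ± 0.08) and Hlf (0.35 ± 0.14, adjusted p = 0.0343) were higher with dexamethasone, with overlap. Dbp was lower in all 4 dexamethasone libraries than in all 4 with adrenaline (-1.76 ± 1.06, adjusted p = 0.172), and passed with values at 0 dropped (3.35e-06), on log2(FPKM + 1) (0.0199), without the 7 libraries (2.1e-06) and with a model of the compared groups alone (0.000608). The Tef call was lost without dexamethasone replicate 4 (adjusted p = 0.0751), and the Hlf call without adrenaline replicate 2 or 4 or dexamethasone replicate 2 or 3 (adjusted p up to 0.19), on log2(FPKM + 1) (0.054) and with a model of the compared groups alone (0.12).

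Counted over the 4 genes, adrenaline against WT ADX called 3 at ZT0 (51.1% of all genes) and 1 at ZT12 (53%), and dexamethasone 2 (68.9%) and 1 (66.3%). Dexamethasone against adrenaline called 3 at ZT0 (48.6%) and, by limma, 0 at ZT12 (42.6%), with 0 there at an unadjusted p under 0.05. Against WT SHAM, adrenaline called 1 at ZT0 (43.1%) and 2 at ZT12 (39%), and dexamethasone 3 (62.6%) and 2 (52.7%). With shares of all genes of 39% to 68.9%, these counts say little about the 4 genes, and the sizes above carry the description.

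Between the genotypes, Hlf was lower in RE-RE mice at ZT12. It read 2.82 ± 0.435 FPKM in RE-RE SHAM against 3.84 ± 0.266 in WT SHAM (-0.45 ± 0.14, adjusted p = 0.0186, and up to 0.0843 on leaving out WT SHAM replicate 6 or RE-RE SHAM replicate 6 or 8). After ADX it read 2.3 ± 0.214 against 3.4 ± 0.267 (-0.56 ± 0.14, adjusted p = 0.00158), and neither pair of groups overlapped. At ZT0 Hlf was also lower in RE-RE ADX than in WT ADX (-0.45 ± 0.15, adjusted p = 0.0163, and up to 0.0903 without WT ADX replicate 1 or 3 or RE-RE ADX replicate 4, 0.299 without the 7 libraries and 0.0725 with a model of the compared groups alone). Tef was higher in RE-RE SHAM than in WT SHAM at ZT0, without overlap (0.38 ± 0.08, adjusted p = 0.000498). Nfil3 was higher in RE-RE ADX than in WT ADX at ZT0, again without overlap (1.14 ± 0.35, adjusted p = 0.00962, and 0.0759 without WT ADX replicate 3 or 0.0848 without the 7 libraries). Dbp in RE-RE SHAM at ZT0, 11.4 ± 1.4 FPKM, was called higher than in WT SHAM through the 3 libraries listed at 0 there (log2 change with values at 0 dropped -0.06, adjusted p = 0.937). In all, 2 of 4 genes were called between RE-RE and WT in sham mice at ZT0 (24.1% of all genes) and 1 at ZT12 (19.3%), and 2 (39%) and 1 (38%) after ADX.

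Whether the time-of-day change itself differed was tested between conditions. Tef had a larger rise in WT SHAM than after ADX alone (difference -0.56 ± 0.12, adjusted p = 0.00508), with adrenaline (-0.46 ± 0.11, adjusted p = 0.00732) and with dexamethasone (-0.57 ± 0.11, adjusted p = 0.000283). The difference from ADX alone was not called with a block on the replicate number and only the groups compared (adjusted p = 0.205). The Tef rise in WT SHAM was also larger than in RE-RE SHAM (-0.47 ± 0.11, adjusted p = 0.0399), a call lost with equal medians of the libraries (adjusted p = 0.0608), without the 7 libraries (0.208) and on leaving out any of the 16 libraries other than WT SHAM replicates 1 and 5 and RE-RE SHAM replicates 3 and 7. These 4 differences share the WT SHAM libraries. Hlf went the same way against WT ADX (-0.7 ± 0.2, adjusted p = 0.0741) and RE-RE SHAM (-0.7 ± 0.2, adjusted p = 0.0774), neither past the test. The first passed without WT SHAM ZT0 replicate 4 or WT ADX ZT0 replicate 2 (adjusted p down to 0.0431), and the second without RE-RE SHAM ZT12 replicate 7 (0.0421). The fall of Nfil3 was larger in WT ADX+DEX than in WT ADX (-1.68 ± 0.48, adjusted p = 0.013), though without WT ADX ZT0 replicate 3 the adjusted p was 0.0521. Its change in WT ADX minus that in WT SHAM was 1.53 ± 0.48 (adjusted p = 0.0991) and did not pass, so a loss of the fall after ADX was not shown. It passed with age as a covariate (adjusted p = 0.0355) and without WT SHAM ZT12 replicate 5 or WT ADX ZT12 replicate 7 (down to 0.0431). The difference RE-RE ADX minus RE-RE SHAM (1.26 ± 0.46, adjusted p = 0.444) did not pass as deposited or under any alternative.

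Dbp was called in the 4 differences against WT SHAM, all negative as deposited and all positive with values at 0 dropped, so no direction is given. With only the compared groups in the model all 4 calls were lost (adjusted p 0.112 to 0.254), and on log2(FPKM + 1) those of adrenaline (0.08), dexamethasone (0.997) and RE-RE SHAM (0.0673). The call of dexamethasone (adjusted p = 0.0467) was lost on leaving out any of the 16 libraries other than WT SHAM ZT0 replicate 4. Between conditions without a library at 0, the Dbp rise with dexamethasone exceeded that in WT ADX by 3.03 ± 1.56 (adjusted p = 0.184) and that with adrenaline by 2.25 ± 1.5 (adjusted p = 0.347). Neither passed as deposited. With values at 0 dropped both did (4.17e-06 and 0.000179), as they did without the 7 libraries and with only the compared groups in the model, and the first also on log2(FPKM + 1) (0.00879). By count, 2 of 4 genes were called between WT SHAM and each of WT ADX (1.54% of all genes), adrenaline (7.93%), dexamethasone (18.9%) and RE-RE SHAM (0.342%), and 1 between dexamethasone and WT ADX (17.2%). The test by limma called 0 between adrenaline and WT ADX (4.62%), between the hormones (13.6%), between RE-RE ADX and RE-RE SHAM (0.0667%) and between RE-RE ADX and WT ADX (0.283%), with 1, 1, 2 and 0 at an unadjusted p under 0.05. The 1 between the hormones was Nfil3 (-1.27 ± 0.46, adjusted p = 0.0612), which passed on log2(FPKM + 1) (0.0326), without the 7 libraries (0.0299) and with a model of the compared groups alone (8.69e-05).

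Set side by side, activators rose and the repressor fell in WT SHAM, WT ADX+DEX and RE-RE SHAM, with Dbp past the test in the first 2 only. In the other 3 conditions the activators were higher at ZT12 while Nfil3 did not pass. The ratio of the Tef to the Nfil3 level (FPKM over FPKM), a description of that balance, had a median of 1.42 at ZT0 and 8.68 at ZT12 in WT SHAM, and 2.02 and 8.46 in RE-RE SHAM. In WT ADX it was 8.17 and 8.75, near the ZT12 value of sham mice at both times. With adrenaline it was 1.18 and 2.37, and with dexamethasone 0.621 and 2.75. WT ADX+DEX at ZT0 was thus the only group whose libraries all held more Nfil3 than Tef, with ratios of 0.545 to 0.662. RE-RE ADX had medians of 3.5 and 5.54.

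**Figure D3:**
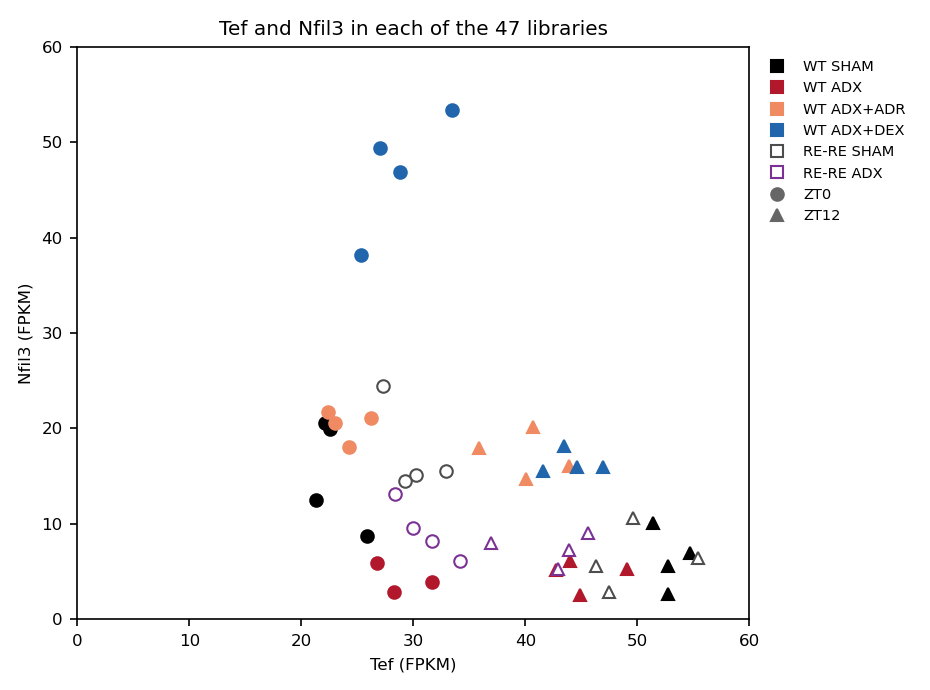
Nfil3 against Tef, both in FPKM on linear axes, in each of the 47 libraries, with colour for the condition (open symbols for RE-RE), circles for ZT0 and triangles for ZT12. WT SHAM moves from left to lower right between ZT0 and ZT12, WT ADX moves along the bottom, and the 4 WT ADX+DEX libraries at ZT0 stand apart at 38.2 to 53.4 FPKM of Nfil3.

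Over the 12 group medians of log2(FPKM + 1), Pearson's r was 0.93 between Dbp and Tef, 0.93 between Tef and Hlf and 0.82 between Dbp and Hlf. These points share the step from ZT0 to ZT12, and r was 0.78, 0.61 and 0.26 within the 6 ZT0 groups and 0.39, 0.41 and -0.12 within the 6 ZT12 groups. Nfil3 had an r of -0.47 with Dbp, -0.48 with Tef and -0.48 with Hlf. In the same order these were -0.39, -0.27 and -0.61 within the ZT0 groups and 0.23, -0.64 and -0.09 within the ZT12 groups. The repressor was thus far from a mirror image of the activators. In the order of the group means, the 6 ZT0 groups were the 6 lowest and the 6 ZT12 groups the 6 highest for each activator. For Tef the step between them, from 31.1 FPKM in RE-RE ADX at ZT0 to 40.1 in WT ADX+ADR at ZT12, was the only neighbouring pair without overlap. Neighbours differed by more than the larger of their SDs in 1 of 11 steps for Dbp, 3 for Tef, 4 for Hlf and 2 for Nfil3. Nfil3 was ordered by condition more than by time: the 6 lowest groups were WT ADX and RE-RE ADX at both times and the sham groups at ZT12. The group with dexamethasone at ZT0 was highest, apart from its neighbour WT ADX+ADR at ZT0 by 26.6 FPKM without overlap.

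Among 9797 genes with a mean of at least 1 FPKM, the genes most like each member over the 12 group medians were named by r, as a description of these groups. Dbp was most like Tmem86a (0.94), Tef (0.93), Abtb1 (0.92), Nrip1 (0.92) and Alg2 (0.92), and most opposite to Zfp462, Mras and Myh10 (-0.94 to -0.92). Tef was most like Per2 (0.95), a clock repressor, Zfp956 (0.94), Nrip1 (0.94), Dbp and Hlf, and most opposite to Arhgap24, Ptpn4 and Ahdc1 (-0.94 to -0.92). Hlf was most like Ewsr1 (0.96), Cldn12 (0.96), Stk35 (0.95), Fam76a (0.95) and Ccnt2 (0.93), and most opposite to Olfm1, Klhl30 and Hoxa10 (-0.93 to -0.92). Nfil3 was most like Ppp1r3c (0.96), a glycogen-targeting subunit of protein phosphatase 1, Ddx3x (0.96), Esrrb (0.95), Chd7 (0.95) and Tle1 (0.95), and most opposite to Topbp1, Tbc1d23 and Scin (-0.93 each).

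The E-box genes, which are the clock's activators and repressors at the sites known to drive Dbp, Tef and Hlf, moved in both directions between ZT0 and ZT12. Of 11 listed genes, 6 rose in WT SHAM, and 4 fell (Arntl, Clock, Npas2 and Cry1), with a median log2 change of 1.04 beside 0.015 for all genes. After ADX alone 4 rose (Per2, Per3, Cry2 and Bhlhe41) and 2 fell (Clock and Npas2), with a median of 0.6 beside 0.014. With adrenaline 6 rose and 3 fell (Clock, Npas2 and Cry1; 0.94 beside 0.019), and with dexamethasone 5 rose (Per2, Per3, Bhlhe40, Bhlhe41 and Ciart) and the 4 genes that fell in WT SHAM fell (0.58 beside -0.001). In RE-RE SHAM 5 rose (Per1, Per2, Per3, Cry2 and Bhlhe41) and 3 fell (Arntl, Clock and Cry1; 0.95 beside 0.011). In RE-RE ADX 2 rose (Per3 and Cry2) and 1 fell (Clock; 0.43 beside 0.009). Arntl, which encodes BMAL1, read 14.2 to 18.8 FPKM at ZT0 and 0 to 0.758 at ZT12 in WT SHAM, and 5.82 to 9.28 and 1.24 to 2.42 in WT ADX. In RE-RE SHAM, where Cre restores it, it read 13.4 to 15.2 at ZT0, overlapping WT SHAM, and was listed at 0 in 3 ZT12 libraries. Arntl was not called in WT ADX, with adrenaline or in RE-RE ADX, where its SE was 0.81 to 0.87, with 4 libraries listed at 0. It was nonetheless lower at ZT12 without overlap in each of these. With adrenaline it read 16.1 to 18.0 at ZT0 and 5.66 to 6.29 at ZT12, and in RE-RE ADX 7.22 to 11.4 and 0.985 to 3.99. Clock, its partner, fell in all 6 conditions (-1.27 ± 0.09 in WT SHAM and -0.61 ± 0.09 in WT ADX+DEX). Per3, a repressor of the clock with a known D-box, rose in all 6: it was listed at 0 in all 4 WT ADX+DEX libraries at ZT0 and read 5.85 to 6.43 at ZT12. In WT SHAM it rose from 2.06 ± 0.441 to 8.36 ± 0.557.

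Among receptors of the RORE, known to set Nfil3, Nr1d1, the repressor REV-ERBα, fell from ZT0 to ZT12 in both WT SHAM (-0.78 ± 0.17) and WT ADX (-0.62 ± 0.19) and in RE-RE mice after sham surgery (-1.26 ± 0.17) or ADX (-0.96 ± 0.17). With dexamethasone it rose instead, from 20.9 ± 0.357 to 61.0 ± 3.23 FPKM (1.55 ± 0.17, adjusted p = 1.04e-08), where Nfil3 fell. This change of Nr1d1 differed from that in WT ADX (2.17 ± 0.26, adjusted p = 1.49e-07). In WT SHAM and RE-RE SHAM Nr1d1 and Nfil3 both fell, and a link between them was not tested. Nr1d2, the paralogue of Nr1d1 that encodes REV-ERBβ, rose in all 6 conditions, from 12.5 ± 1.95 to 38.7 ± 1.78 in WT ADX+DEX. Of 3 tested RORE regulators (Rorb was not tested), Nr1d2 and Rora rose and Nr1d1 fell in both sham conditions (2 and 1). After ADX alone Nr1d2 rose and Nr1d1 fell (1 and 1). With adrenaline Nr1d2 and Rora rose (2 and 0), with dexamethasone Nr1d1 and Nr1d2 (2 and 0), and in RE-RE ADX Nr1d2 rose and Nr1d1 fell (1 and 1). Rora, an activator at the same sites, rose from 6.62 ± 0.679 to 8.33 ± 0.304 FPKM in WT SHAM. The median change of the 3 was 0.34 in WT SHAM and 1.55 in WT ADX+DEX, beside 0.015 and -0.001 for all genes.

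**Figure D4:**
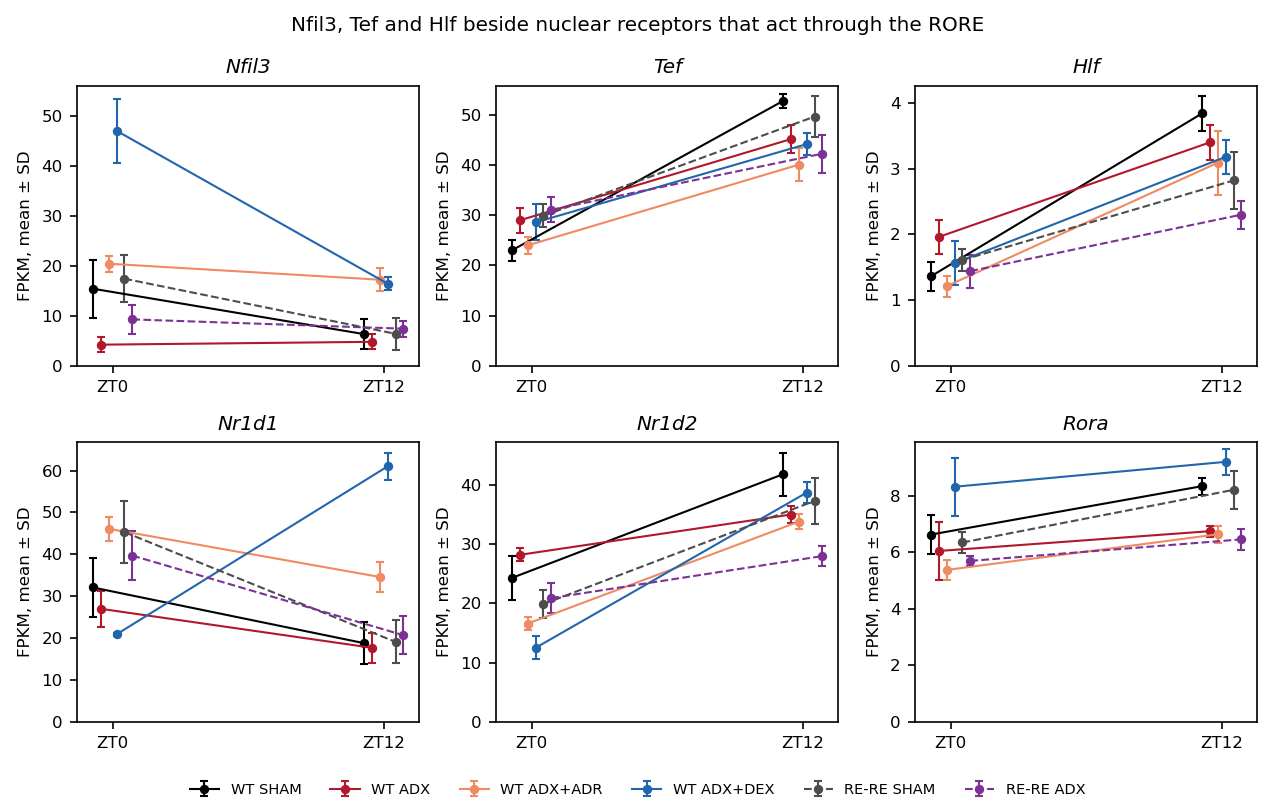
Mean FPKM with SD (linear axes from 0) at ZT0 and ZT12 of Nfil3, Tef, Hlf and the receptors Nr1d1, Nr1d2 and Rora, with 1 line per condition, dashed for RE-RE. In WT ADX+DEX Nfil3 falls from 47 to 16.4 while Nr1d1 rises from 20.9 to 61.0, and in WT SHAM and RE-RE SHAM both fall. Tef and Hlf rise in all 6 conditions.

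Genes that D-box factors are known to act on moved in both directions, and any effect of these factors on them was not tested. Of 7 clock genes with a D-box, 5 rose (Per1, Per2, Per3, Nr1d2 and Rora) and 2 fell (Cry1 and Nr1d1) in each sham condition. After ADX alone 3 rose (Per2, Per3 and Nr1d2) and 1 fell (Nr1d1). With either hormone 4 rose and 1 fell: Per2, Per3 and Nr1d2 with both, Rora with adrenaline and Nr1d1 with dexamethasone, against a fall of Cry1 in both. In RE-RE ADX 2 rose (Per3 and Nr1d2) and 1 fell (Nr1d1). Per1 was called in the sham conditions only, and its SE was 1.26 to 1.36, with 4 libraries listed at 0. With adrenaline Per1 was nonetheless higher at ZT12 without overlap, from 4.76 ± 0.342 to 31.6 ± 4.42 FPKM. In RE-RE ADX it also was, at 2.86 to 7.49 and 8.77 to 15.6. After ADX alone and with dexamethasone the Per1 groups overlapped. The median changes of the 7 genes were 0.31 (WT ADX) to 1.03 (WT ADX+ADR), beside 0.014 and 0.019 for all genes. This list shares members with the other lists. Among 4 tested targets outside the clock (Nr1i3 and Fgf21 were not tested), Por, the P450 reductase, Pdxk, the pyridoxal kinase that makes vitamin B6 cofactor, and Ppara, a receptor for fatty acids, rose in WT SHAM and WT ADX. Pdxk alone rose with adrenaline (0.72 ± 0.13) and RE-RE SHAM (0.52 ± 0.13). In WT ADX+DEX Por rose by 0.49 ± 0.08, while Alas1, the first enzyme of haem synthesis (-0.72 ± 0.17), and Ppara (-0.57 ± 0.22, adjusted p = 0.0464) fell. In RE-RE ADX 0 of 4 were called by limma, with 2 (Por and Pdxk) at an unadjusted p under 0.05. Their medians were 0.48 in WT SHAM, 0.59 in WT ADX and -0.15 in WT ADX+DEX, beside 0.015, 0.014 and -0.001 for all genes.

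All 6 muscle fibre markers were present, with a summed level of 54100 to 80500 FPKM. In WT SHAM they summed to 56300 to 64400 at ZT0 and 69800 to 80500 at ZT12, without overlap, beside the time-of-day changes there, as did the 5 endothelial markers with 116 to 121 and 99.4 to 105. Markers of other cell types moved with some of these comparisons. The sum of the 5 endothelial markers at ZT0 was 116 to 121 FPKM in sham-operated WT mice, 153 to 171 after ADX alone and 66.8 to 71.8 with dexamethasone, running opposite to Nfil3 across these 3 groups. The sum of the 6 macrophage markers was 11.8 to 15.4, 17.4 to 35.5 and 8.38 to 16.3 in the same groups, and 4.12 to 7.54 in WT ADX+DEX at ZT12. Adipocyte markers (4 of 4 present) summed to 30.3 to 78.0 FPKM over all libraries. Fibroblast markers (4 of 4) summed at ZT12 to 74.5 to 158 FPKM in WT ADX and 303 to 387 in RE-RE ADX, and to 80.3 to 133 and 225 to 263 in the sham groups, beside the lower Hlf of RE-RE mice. Erythroid markers (3 of 3) spanned 50.4 to 293. The 5 markers of natural killer and innate lymphoid cells and the 4 of lymphocytes were not used here. In whole muscle, fewer cells of a type and less RNA per cell cannot be told apart, and the part of these cells in the results was not tested.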

How the data were processed

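RNA-seq of 47 tibialis anterior libraries was used in 1 table. Per the labels' protocols, libraries were sequenced as single-end reads of 60 bp. The submitters' processing notes name the GRCm38 build, FastQC (0.11.8) and Trim Galore (0.5.0), then HISAT2 (2.1.0), as well as featureCounts (1.6.2) and edgeR (3.30.0). The authors deposited FPKM on a log2 scale. The lowest value, -6.64, equals log2 of 0.01, so the values were read as log2(FPKM + 0.01), and FPKM were obtained by undoing that. Whether counting used strand is not given in the sources used here. Depth came from 68 genes that 30 or more libraries list at 0: the smallest steps between their values give the worth of 1 read, and a median of 100% of values were whole reads within 0.05 read; no counts were tested. Read numbers behind a value use the exon length of GENCODE M21 and are approximate.

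With limma 3.58.1 under R 4.3.3, a mean for each of the 12 groups was estimated from the deposited log2 values of all libraries (eBayes with trend, 35 residual degrees of freedom) for 12000 genes with at least 1 FPKM in at least 3 libraries. There were 33 contrasts: 6 of time, 18 of condition and 9 differences of time effects. Two-sided p-values were adjusted by Benjamini-Hochberg within a contrast over all 12000 genes, and a gene was called under 0.05. Groups do not overlap when every value of one is above every value of the other. Values with replicate numbers follow the labels, which number ZT0 and ZT12 libraries of a condition consecutively. On simulated data for ZT12 against ZT0 in WT SHAM, with 12000 genes, 85 of 100 genes changed by 1 and 92 of 100 changed by 2 on the log2 scale were recovered, with 8 false calls.

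The 4 genes, the gene lists, the markers and the named genes (the 4 members, Arntl, Nr1d1, Per3, Por, list members in counts of 5 or fewer, and the 5 genes most and 3 least alike by r, leaving out predicted-gene symbols) were chosen with earlier results of these data known. Clock, Nr1d2, Rora and Per1 were given values after these were seen. Some genes of the lists are not reported here. Alternatives tried were an offset of 1 FPKM, testing all genes without a filter, scaling the libraries to equal medians, a model of the compared groups alone, age as a covariate, values at 0 set to missing, leaving out 7 libraries that share no low values, leaving out each library, and a block on the replicate number. Figures were made with Python 3.11.15 and matplotlib 3.10.9.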

Additional observations from a re-analysis of the deposited data

Results flagged for a closer look

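In 3 groups of 4 libraries, 1 library lay far from the others by Dixon's test, which flags about 1 group in 20 by chance. It was run for each of the 4 genes in every group with 4 libraries, so some flags arise by chance. Dbp read 11.9 FPKM in WT SHAM ZT0 replicate 4, where the other 3 libraries are listed at 0, so that any value above 0 would be flagged. Nfil3 read 18.2 in WT ADX+DEX ZT12 replicate 8, beside 15.5 to 15.9, and 24.4 in RE-RE SHAM ZT0 replicate 3, beside 14.5 to 15.5.

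The time-of-day change differed between conditions, by the test of the difference itself, in 9 cases. For Tef the difference was -0.56 (WT ADX minus WT SHAM), -0.46 (WT ADX+ADR minus WT SHAM), -0.57 (WT ADX+DEX minus WT SHAM) and -0.47 (RE-RE SHAM minus WT SHAM). For Nfil3 it was -1.68 (WT ADX+DEX minus WT ADX). For Dbp it was -7.19 (WT ADX), -6.41 (WT ADX+ADR), -4.16 (WT ADX+DEX) and -7.31 (RE-RE SHAM), each minus WT SHAM, and these 4 rest on the 3 libraries listed at 0.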

How the results depend on the processing

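With values at 0 set to missing, 8 Dbp values changed sign: against WT SHAM at ZT0 they became -0.98 (WT ADX), -1.49 (WT ADX+ADR), -3.25 (WT ADX+DEX) and -0.063 (RE-RE SHAM), and as differences of time effects against WT SHAM 0.47, 1.25, 3.5 and 0.35 in the same order. The count of genes called from ZT0 to ZT12 in WT ADX was 1 with only the groups compared. In RE-RE ADX it was 1 with age as a covariate, 0 by limma both without the 7 libraries that share no low values and with only the groups compared (3 at an unadjusted p under 0.05 in each), and 1 to 2 on leaving out each library (1 without ZT0 replicate 4). Of 24 time effects 18 were called (17 to 21 on leaving out each library), of 72 condition effects 29 (25 to 33) and of 36 differences 9 (7 to 11). These contrasts share groups, and the share of all genes called in them ran from 0.0667% to 68.9%, so the totals describe stability only. They include the Dbp calls against WT SHAM that rest on the 3 libraries listed at 0.

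Same-numbered libraries did not deviate together in any contrast by the criterion that every pair exceeds a correlation of 0.1. With the replicate block and only the groups compared, 20 condition effects and 6 differences were called. Set against the main fit, 21 calls were lost and 9 gained. Those lost include Nfil3 (adjusted p = 0.0617) and Tef (0.0734) between WT ADX and WT SHAM at ZT0. Tef with dexamethasone against WT SHAM at ZT0 (0.0598) and the Tef difference of WT ADX minus WT SHAM (0.205) were also lost. No paired analysis was possible for ZT12 against ZT0 because these groups share no replicate numbers. Over the alternatives other than leaving out a library, 18 of 1032 values changed sign, 8 of them called before or after. Hlf values rest on 130 to 660 reads, which limits the precision of its smaller changes.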
